A study of Mus musculus with 20 samples.

Results

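TFIIIC-alone regions are autosomal places where TFIIIC was called in every one of 4 chromatin immunoprecipitation libraries of mouse embryonic fibroblasts, while no peak of condensin II or of the Polycomb mark H3K27me3 touched them. They were chosen by peak calls: the 4 TFIIIC lists were merged wherever peaks shared at least 1 bp, and a merged region was kept if it had a peak in all 4 libraries, was under 5 kb wide and overlapped no peak of 4 condensin II and 4 H3K27me3 lists. Of 423013 merged TFIIIC regions on chromosomes 1 to 19, 63458 met these conditions (15.0%). Presence of TFIIIC and absence of the other marks are therefore the choice itself and not a result. The label holds only as far as peak lists go. H3K27me3 was measured but no Polycomb protein, and a missing peak is not proof that a protein is missing.

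The study set wild-type fibroblasts (WT) beside Rb1L/L fibroblasts (RbL), whose retinoblastoma protein carries a change in the cleft where proteins with an LXCXE motif bind. Both genotypes were E13.5 fibroblasts of the C57BL/6 strain, grown to passage 4 and cycling when fixed. TFIIIC (antibody to the TFIIIC-220 subunit) and H3K27me3 had 2 libraries in each genotype, and the condensin II subunits CAP-D3 and CAP-H2 had 1 each. TFIIIC chromatin was fixed with 1% formaldehyde alone, and that for the other antibodies with 2 mM EGS, a protein crosslinker, and then formaldehyde, so that absence of the other marks was judged in differently fixed chromatin. Whether libraries with one label came from separate cultures is not stated, and tests between libraries then measure only a spread that may be technical. No marker of fibroblasts can be read from peak lists.

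TFIIIC is a multisubunit factor that binds internal promoter elements, the A and B boxes of transfer RNA genes, and places TFIIIB and RNA polymerase III there. It also occupies many sites without the polymerase, known as extra TFIIIC sites, and in yeast and mammals TFIIIC sites have been linked to the loading of condensin and to genome folding. H3K27me3 is the repressive histone mark set by Polycomb repressive complex 2, and condensin II compacts chromosomes and is bound in interphase as well. The TFIIIC-alone regions are the places under 5 kb where TFIIIC was called in all 4 libraries without a peak of the others. They are a part of such places. Another 294610 regions under 5 kb with TFIIIC in 1 to 3 libraries were also free of both. So were 1467 constant regions of at least 5 kb. Positions are given in the mm9 build of the files. They were not assigned to genes, since the annotation at hand is of another build, and no sequence is printed for the same reason.

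Most constant TFIIIC regions fell into the TFIIIC-alone class, and most TFIIIC regions of fewer libraries met the same width limit and exclusions. A peak in all 4 libraries was found in 75732 merged regions, 17.9% of all, a share fixed by the rule and given only as background. Of these, 2494 were at least 5 kb wide and 73238 were narrower. Among the narrower ones, 5722 touched condensin II only, 3706 H3K27me3 only and 352 both, which left the 63458 (83.8% of constant regions). The same width limit and exclusions were met by 138087 of 163088 regions of 1 library. For regions of 2 and 3 libraries it was 86393 of 102065 and 70130 of 82128. The majority is therefore no property of constant regions. The exclusions came mainly from CAP-H2, whose WT list overlapped 4563 of the narrower constant regions (6.23%) and whose RbL list overlapped 4420 (6.04%). CAP-D3 overlapped 1800 in WT and 1514 in RbL, and its lists were shorter, with 17192 and 12926 autosomal peaks against 42174 and 42626 for CAP-H2. The 4 H3K27me3 lists removed between 1171 and 2431 regions each. A single list decided 4201 of the 9780 exclusions (43.0%), from 104 by RbL CAP-D3 to 1012 by WT CAP-H2.

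The number of TFIIIC-alone regions depended on the TFIIIC library with the fewest peaks. The autosomal lists held 195239 and 230951 peaks in WT replicates 1 and 2 and 286175 and 291040 in RbL replicates 1 and 2. Without WT replicate 1, 102688 regions met the rule, 84324 without WT replicate 2, and 71466 and 71399 without RbL replicates 1 and 2. Read numbers are not given in the sources used here, so how far depth set these lists is unknown.

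TFIIIC-alone regions, held under 5 kb by the rule, were mostly built from single peaks. Their merged width had a median of 1345 bp, with 5% under 845 bp and 5% over 3305 bp. The median was 742 bp in regions of 1 to 3 libraries under the same exclusions. It was 1816.5 bp in constant regions at condensin II and 1558 bp in those at H3K27me3. In 45819 of the TFIIIC-alone regions (72.2%) each of the 4 libraries had exactly 1 peak, and no library had more than 5 in a region. At least 1 base was covered by all 4 libraries in 58515 regions, with a median of 583 shared bases, which was 48.5% of the merged width in the median region. The other 4943 (7.79%) were joined only by a chain of overlaps and held no base common to the 4 lists. That share was 9.49% in constant regions of the same width limit at condensin II and 740 of 3706 regions in those at H3K27me3. The narrowest TFIIIC-alone region, chr1:89561724-89562327, spanned 604 bp, of which 519 were covered in all 4 libraries. At the width limit, the widest region inside, chr11:121157757-121162755, spanned 4999 bp with 2 to 4 peaks per library, and the nearest outside, chr6:87738270-87743273, spanned 5004 bp with 1 to 3 peaks. Their lowest scores over the 4 libraries were 423 and 371.

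Peak centres agreed best between the RbL libraries. The midpoints of a region differed by a median of 83.5 bp between RbL replicates 1 and 2, by 104 to 105 bp between WT replicate 2 and either RbL library, and by 135 bp between the 2 WT replicates. Every pair with WT replicate 1 was at or above 122 bp. Score order followed the same pattern. Across the 63458 regions, which are not independent replicates, Spearman's rho of scores was 0.68 between the RbL replicates, 0.41 between the WT replicates, 0.55 and 0.56 between WT replicate 2 and the RbL libraries, and 0.46 for both pairs of WT replicate 1 with RbL. WT replicate 2 thus ranked these regions more like the RbL libraries than like the other WT library, as a description of these lists.

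Scores covered the whole range of the caller. The authors' score is deposited without a column name, and for this peak caller it is -10 times the log10 of a p-value. It depends on depth as well as on enrichment, so scores of different lists are set side by side here as deposited, and order between genotypes was judged on ranks or on gaps within a list. The median score of TFIIIC-alone regions, taking the highest peak in each, was 216 in WT replicate 1, 427 in WT replicate 2, 421 in RbL replicate 1 and 564 in RbL replicate 2, where all autosomal peaks of those lists had medians of 172, 289, 211 and 283. The list medians count every single peak, also those called in 1 library only. Constant regions at condensin II had medians of 228, 463, 397 and 537, and those at H3K27me3 213, 378, 370 and 526. A median above that of the list is thus not particular to TFIIIC-alone regions. The score was under 100 in 6.49% of the TFIIIC-alone regions in WT replicate 1 and in 0.35%, 3.10% and 0.81% in the other 3. It was 1000 or more in 1.50%, 13.9%, 14.9% and 25.1% of them in the same order. WT replicate 1 was thus low and RbL replicate 2 high, and the genotypes overlapped, since WT replicate 2 had a higher median than RbL replicate 1.

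**Figure D1:**
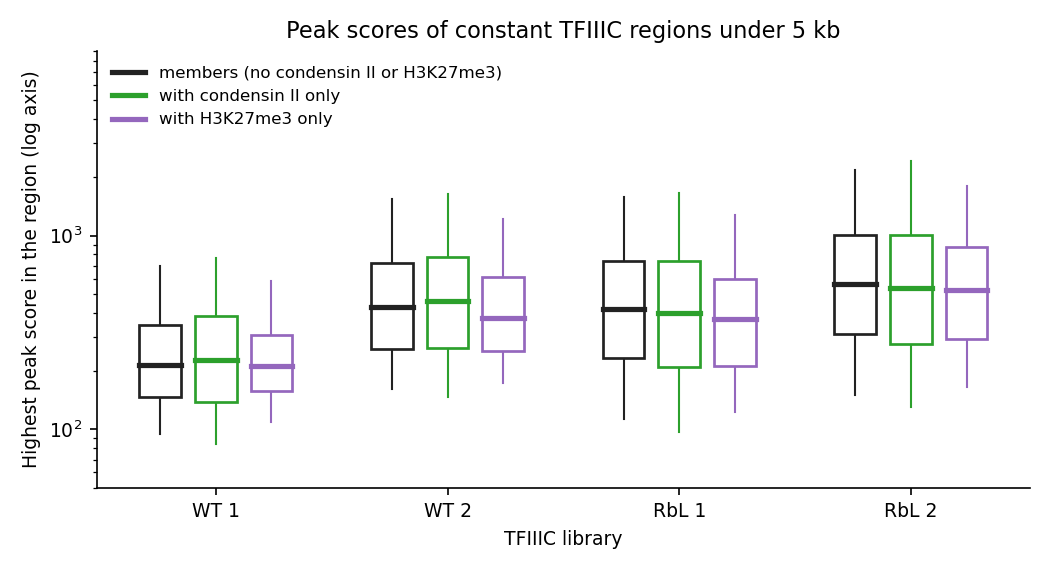
Highest peak score per region (log axis) in each TFIIIC library, for constant regions under 5 kb without other marks (black), with condensin II only (green) and with H3K27me3 only (purple). Thick lines are medians, boxes the 25th to 75th percentiles and thin lines the 5th to 95th; the black medians are 216, 427, 421 and 564 from left to right.

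TFIIIC-alone regions held a larger part of the WT lists than of the longer RbL lists. They contained 37.0% and 32.2% of all autosomal TFIIIC peaks in WT and 25.5% and 25.2% in RbL, and 40.5%, 36.4%, 31.5% and 30.9% of the bases under peaks. The number of peaks inside them was nearly level, at 72332, 74401, 73047 and 73350. The rule largely fixes this, since every region must hold a peak in each list. Exactly 1 peak was held by 85.3% to 87.8% of the regions, depending on the list. The share of a list's peaks thus moved with the length of the list through the choice itself and is not a result. Of the 3000 highest-scoring peaks of a list, a number chosen after seeing the ties at 3100 so that the last place falls below them, 64.5% and 58.5% lay in TFIIIC-alone regions in WT, against 46.5% and 43.0% in RbL. These shares were above those of all peaks in each of the 4 libraries. Constant regions at condensin II held 7.6%, 6.5%, 4.9% and 5.8% of the top 3000, against 3.9%, 3.3%, 2.5% and 2.5% of all peaks. Those at H3K27me3 held 2.4%, 2.1%, 1.5% and 1.9%, against 2.1%, 1.9%, 1.6% and 1.6%. Regions of 1 to 3 libraries under the same exclusions held 1.1% to 1.7%, against 43.5% to 58.2%. A larger share at the top is thus not particular to TFIIIC-alone regions. It was not tested apart from the choice of regions called in all 4 libraries. Constant regions of at least 5 kb held 21.3% and 29.5% of the top 3000 for WT and 45.1% and 46.8% for RbL. RbL peaks were also wider, and width entered the rule, so these shares are given as a description without a test.

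**Figure D2:**
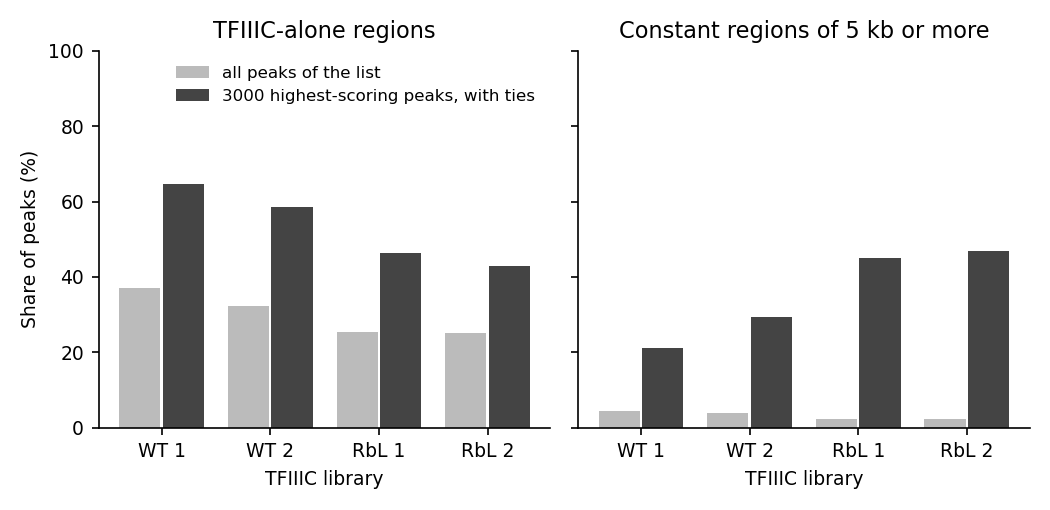
Share of TFIIIC peaks in TFIIIC-alone regions (left) and in constant regions of at least 5 kb (right), for all autosomal peaks of a list (grey) and its 3000 highest-scoring peaks (black). The black bars for TFIIIC-alone regions are at 64.5%, 58.5%, 46.5% and 43.0%, and those for wide regions at 21.3%, 29.5%, 45.1% and 46.8%.

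The strongest TFIIIC-alone regions were single, wide peaks with a score of at least 3100 in nearly every library. In 7 regions the score was at least 3100, the value at which many peaks are tied, in all 4 libraries. The first of them by mean score, chr8:57976730-57979375, had scores of 3233, 3100, 3100 and 3100 in WT replicates 1 and 2 and RbL replicates 1 and 2. Its peaks ran from 57976963 to 57979375, 57976849 to 57979361, 57976739 to 57979334 and 57976730 to 57979241, so that the 4 lists shared 2279 of its 2646 bp. The groups did not differ there beyond the tie. A second strong region, chr8:57979812-57982793, lay just beyond it, with scores of 2922 in WT replicate 1 and 3100 in the other 3.

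A similar pair lay on chromosome 6, where chr6:3081572-3085835 and chr6:3087416-3092209 both scored 3100 in all 4 libraries. They shared 3718 of 4264 bp and 4603 of 4794 bp between the lists. The other regions at 3100 in all 4 libraries were chr5:68609950-68613704, chr6:66956078-66960049, chr6:142344913-142349268 and chr7:48426645-48431192. All 12 highest-scoring regions had 1 peak per library, with merged widths of 2646 to 4953 bp and lowest scores of 2836 to 3100. Their nearest condensin II peak was 4.86 to 186 kb away and the nearest H3K27me3 peak 14.5 to 265 kb. In the last 5 of the 12, the lowest score was that of WT replicate 1.

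Peak calls within TFIIIC-alone regions were wider in RbL than in WT libraries, as they were in constant TFIIIC regions at large. The median width of the calls was 787 bp and 886.5 bp in the WT libraries and 1076 bp and 1060 bp in RbL. Both RbL medians lay above both WT medians. The mean RbL width exceeded the mean WT width in 82.3% of the regions, where 81.8% of all constant regions did so, and the median log2 ratio of RbL to WT width was 0.28, against 0.29. In 44.0% the outer limits of the WT calls lay within those of the RbL calls, and the reverse held in 11.3%. All constant regions gave 43.0% and 11.9%, nearly the same, and regions at condensin II 32.7% and 18.7%. A share near that of all constant regions is no property of the TFIIIC-alone class, and since the rule used calls of the same genotypes, no test was made.

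Relative strength moved in both directions between genotypes, with a median change near 0. Every library's scores were ranked over the same 75732 constant regions, from 0 for the lowest to 100 for the highest, so that all lists rank equal numbers. The median TFIIIC-alone region ranked at 48.3 and 48.4 in the WT libraries and 48.8 and 48.7 in RbL. The difference of mean ranks, RbL minus WT, had a median of -0.50 points, with quartiles of -12.7 and 12.7. It was under 10 points in either direction in 41.3%, and so 10 points or more in most regions, and over 50 points in 1078 (1.70%). The share under 10 points was 34.8% at condensin II, 37.1% at H3K27me3, 30.7% at both and 61.0% in regions of at least 5 kb. Over 50 points it was 4.82%, 2.00%, 5.97% and 0.60% in the same order. Shifts of this size were thus not particular to TFIIIC-alone regions. Both RbL ranks were above both WT ranks in 11019 TFIIIC-alone regions (17.4%), where 17.9% of all constant regions met this rule. Both were below in 12289 (19.4%), where the background was 19.5%. Both shares were close to the background, so they say nothing particular about TFIIIC-alone regions.

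**Figure D3:**
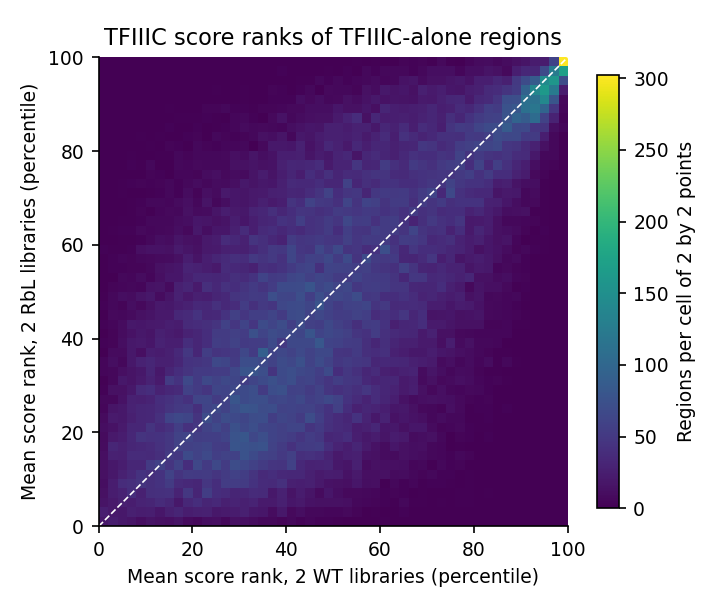
Mean score rank of each TFIIIC-alone region in the 2 WT libraries (x axis) and the 2 RbL libraries (y axis), as percentiles among 75732 constant regions; colour gives the number of regions per cell and the dashed line equal ranks. Regions spread widely on both sides of the line and lie closest to it at the highest ranks; the median difference is -0.50 points.

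Single regions departed far from that line, in both directions. The largest rise in rank with no overlap between genotypes was at chr7:25159444-25161824, with scores of 121 and 154 in the WT libraries and 1915 and 2224 in RbL. Its ranks were 13.7 and 4.0 in the WT libraries and 95.7 and 93.3 in RbL. The WT calls covered 704 and 565 bp near one end of the region, while the RbL calls covered 2240 and 2222 bp. The next, chr14:45928464-45930579, had scores of 86.6 and 178 in the WT libraries and 1290 and 1197 in RbL. In both regions every RbL value was far above every WT value.

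The largest fall was at chr6:144994653-144997744, with scores of 689 and 1534 in the WT libraries and 171 and 189 in RbL, but the 4 lists shared no base there. At chr9:14354529-14355821, where 525 bp were shared, scores were 611 and 956 in the WT libraries and 106 and 192 in RbL, and ranks 91.6 and 83.0 against 4.0 and 10.4. At chr17:9173666-9175146, they were 742 and 1104 in the WT libraries and 167 and 185 in RbL. These regions were picked as extremes of the rank difference among 63458, so their differences carry no test.

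Against constant regions of the same width limit at condensin II, the order of scores turned with genotype and with width. With all widths together, the median score of TFIIIC-alone regions was below that of regions at condensin II in WT, at 216 against 228 and 427 against 463, and above it in RbL, at 421 against 397 and 564 against 537. The gaps on the log2 scale were -0.08, -0.11, 0.08 and 0.07, a mean of -0.01 ± 0.10 (SD, n = 4 libraries; two-sided exact sign-flip permutation test, p = 0.875, where the smallest possible is 0.125). By genotype it was -0.10 ± 0.03 for WT and 0.08 ± 0.01 for RbL libraries (SD, n = 2), which differed by 0.17 (exact permutation of genotype labels, two-sided p = 0.333, the smallest the design allows). It was 0.14 without WT replicate 1 and 0.07 without WT replicate 2, when regions were chosen from the remaining 3 lists. Regions at condensin II were wider, with a median of 1816.5 bp, and a wider region has more room to touch another peak.

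In the mean over 5 classes of merged width, TFIIIC-alone regions scored higher in every library. The mean gap over classes was 0.11 in each WT library and 0.37 and 0.39 in the RbL libraries (mean 0.24 ± 0.16 SD, n = 4, exact sign-flip permutation p = 0.125, the smallest possible). In the largest class, from 1000 to 1500 bp with 24600 TFIIIC-alone regions, the medians were 218 against 187 and 432 against 365 in WT, and 406 against 264 and 541 against 356 in RbL. From 3000 to 5000 bp the gap was -0.05 and -0.10 in WT and 0.08 in both RbL libraries. Both RbL gaps lay above both WT gaps in each of the 5 classes. The genotype difference within width classes was 0.27 (exact permutation p = 0.333). A lower TFIIIC score at condensin II in RbL enters this difference as much as a higher one in TFIIIC-alone regions does, and these cannot be told apart from scores within a list. The TFIIIC lists also differ in length and peak width between genotypes, and the part of these in the result was not tested.

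**Figure D4:**
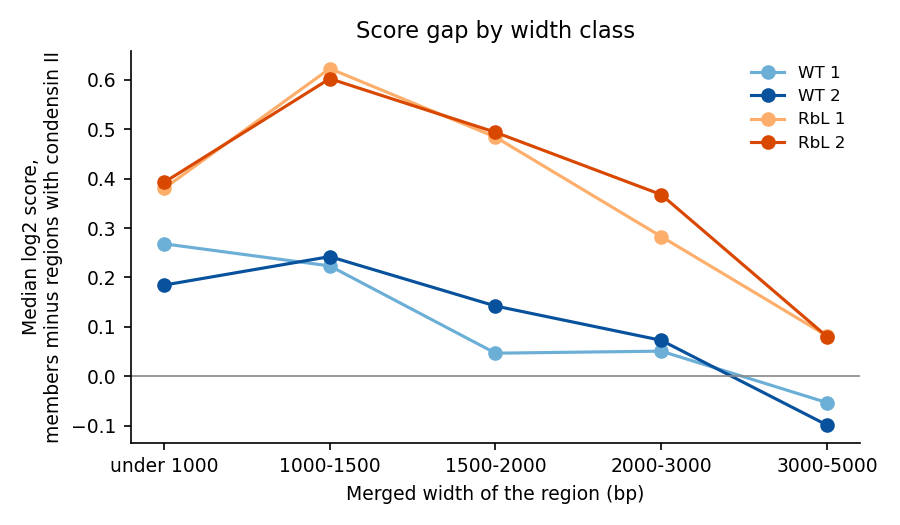
Difference in median log2 score between TFIIIC-alone regions and constant regions at condensin II, by class of merged width, for each TFIIIC library (blue WT, orange RbL). All 4 libraries are above 0 in the 4 narrower classes, and both RbL libraries lie above both WT libraries in every class.

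Beyond the overlaps that the rule barred, TFIIIC-alone regions lay away from H3K27me3 more often than less reproducible TFIIIC regions did. A peak of H3K27me3 lay within 10 kb of 6.95% and 11.6% of them for WT replicates 1 and 2, and of 11.9% and 14.2% for RbL replicates 1 and 2. Among the 294610 regions called in 1 to 3 TFIIIC libraries under the same exclusions and width limit, these shares were 10.6%, 17.8%, 18.1% and 21.7%. The difference was -3.64, -6.21, -6.25 and -7.44 percentage points, a mean of -5.88 ± 1.60 (SD, n = 4 libraries, lower in 4 of 4; exact sign-flip permutation p = 0.125, the smallest possible). All 4 differences compare the same sets of regions, with lists that also served for the exclusions. The test therefore measures only a spread between H3K27me3 lists and not that of the TFIIIC split. The share near H3K27me3 fell with every added TFIIIC library. For RbL replicate 2 it was 22.5% in regions of 1 library, 22.1% in regions of 2, 19.5% in regions of 3 and 14.2% in TFIIIC-alone regions. With TFIIIC WT replicate 1 left out and regions chosen from the other 3 lists, the mean difference was -4.51 points.

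The direction was the same in 1 class of width and, separately, within windows of 1 Mb. Width and window were not matched together. Regions of fewer libraries were narrower, with median widths of 602, 811 and 997 bp for 1, 2 and 3 libraries. In regions of 1000 to 1500 bp only, the mean difference was -8.47 ± 1.67 percentage points (SD, n = 4, exact sign-flip permutation p = 0.125). Taken within 2392 windows of 1 Mb that held at least 5 regions of both kinds, it was -3.81 ± 0.92 points (SD, n = 4, exact sign-flip permutation p = 0.125). This comparison was added after the distances had been seen, and its tests likewise measure only a spread between H3K27me3 lists.

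For condensin II the picture depended on width. A CAP-H2 peak lay within 10 kb of 28.6% of TFIIIC-alone regions in WT and 28.3% in RbL, and of 28.1% and 27.8% of regions from 1 to 3 libraries. For CAP-D3, it was 16.4% and 13.8% against 14.8% and 11.9%. In regions of 1000 to 1500 bp, however, the difference from the others was -4.89 points in WT and -4.69 points in RbL for CAP-H2, and -2.63 and -1.95 points for CAP-D3. Each of these antibodies had a single library in a genotype, so none of these differences has a replicate check.

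**Figure D5:**
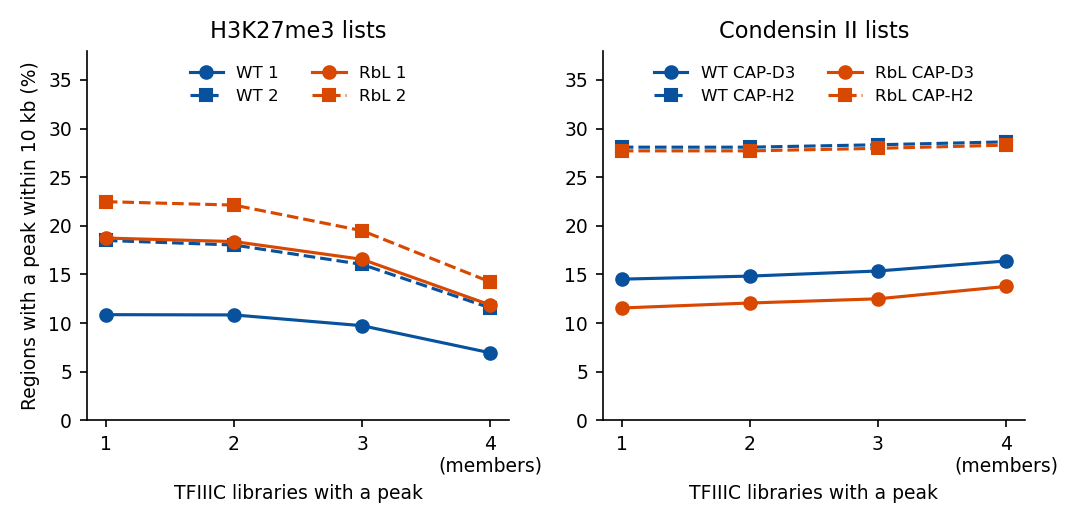
Share of TFIIIC regions with a peak of another list within 10 kb, by the number of TFIIIC libraries with a peak, all under 5 kb and free of condensin II and H3K27me3 overlap; blue is WT, orange RbL. The share near H3K27me3 (left) falls to 6.95%, 11.6%, 11.9% and 14.2% in TFIIIC-alone regions. Near condensin II (right), the share rises for CAP-D3, from 14.5% to 16.4% in WT and from 11.6% to 13.8% in RbL. It hardly changes for CAP-H2. Regions are not matched for width here.

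The share of TFIIIC-alone regions near H3K27me3 was larger in RbL, together with longer lists. It was 9.25 ± 3.26% for WT and 13.0 ± 1.68% for RbL libraries (SD, n = 2), a difference of 3.79 points with an exact permutation p of 0.333, the smallest possible. It was 1.50 points without H3K27me3 WT replicate 1 and 6.22 points without WT replicate 2. The H3K27me3 lists held 24634 and 42944 autosomal peaks in WT and 43610 and 55620 in RbL, the same order as the shares. With the 24634 highest-scoring peaks of every list they were 6.95% and 7.34% in the WT libraries and 7.44% and 7.61% in RbL, a difference of 0.38 points. The median distance from a TFIIIC-alone region to the nearest H3K27me3 peak was 102 kb and 63.8 kb in the WT libraries and 62.8 kb and 55.0 kb in RbL. Regions of 1 to 3 TFIIIC libraries under the same exclusions also had larger shares within 10 kb in RbL. These were 18.1% and 21.7%, against 10.6% and 17.8% in WT. A larger share in RbL is thus not particular to TFIIIC-alone regions.

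Stronger TFIIIC-alone regions were less often near condensin II. They were parted into 4 equal classes by the lowest of their 4 scores, with limits at 131, 183 and 284. From the weakest to the strongest class, a condensin II peak of any list lay within 10 kb of 45.9%, 38.8%, 34.0% and 30.8%. The order was the same in each list: for WT CAP-H2 the shares were 36.1%, 29.5%, 25.5% and 23.4%, and for RbL CAP-D3 they were 16.5%, 13.9%, 12.8% and 11.9%. Median width rose along the classes from 1089 to 1757 bp. In regions of 1000 to 1500 bp alone, the shares for any list fell from 45.1% in the weakest class through 35.5% and 28.2% to 20.2% in the strongest. No such order was seen for H3K27me3: in WT replicate 2 the shares were 9.72%, 13.2%, 13.8% and 9.51%, highest in the middle classes. These are shares over regions, with no test.

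A few TFIIIC-alone regions bordered closely on the other marks. A condensin II peak lay within 1 kb of 3738 of them (5.89%) and an H3K27me3 peak within 1 kb of 2044 (3.22%), which leaves 57771 with neither within 1 kb. The median distance to the nearest of the 8 lists was 10.2 kb. At the other end, 70 regions had neither mark within 1 Mb. The farthest, chr7:22281455-22283480, was 1743 kb from the nearest condensin II peak and 1729 kb from the nearest H3K27me3 peak, with scores of 415 and 967 in the WT libraries and 1766 and 2404 in RbL. The next, chr7:22455122-22457196, lay in the same stretch of chromosome 7 and had scores of 525 and 567 in the WT libraries and 545 and 249 in RbL, and no base was shared by its 4 lists. The third, chr7:22216799-22217659, was also there.

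TFIIIC-alone regions were spread over all autosomes. There were 26.3 per Mb in all, from 21.3 on chromosome 3 to 33.2 on chromosome 5. As a share of all merged TFIIIC regions they ranged from 13.0% on chromosome 19 to 16.4% on chromosome 5. As a share of constant regions the range was wider, from 76.6% on chromosome 11 to 89.5% on chromosome 13. In the first 5 Mb of the span with peaks on each chromosome there were 28.4 per Mb, and in the last 5 Mb 37.0 per Mb, where they made up 17.3% and 15.6% of the TFIIIC regions.

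They often came in groups. Another TFIIIC-alone region lay within 1 kb of 19.8% and within 10 kb of 59.9%, and the median distance to the nearest was 6.50 kb. Another constant region of any class lay within 1 kb of 22.7% and within 10 kb of 63.4%. The nearest TFIIIC region of any kind was 0.691 kb away in the median and within 10 kb of 93.2%. Spacing was measured from TFIIIC-alone regions only, so grouping is not shown to be particular to them. With TFIIIC peaks up to 1 kb apart merged, 45810 regions met the rule. Counted by midpoint in 2417 windows of 1 Mb, the median window held 21, with 5% of windows at 8 or fewer and 5% at 63 or more. The count per window rose with that of other TFIIIC regions (Spearman's rho 0.71 over windows, a description), and with those of CAP-D3 peaks (0.52 in WT, 0.54 in RbL), H3K27me3 peaks (0.43 to 0.46) and CAP-H2 peaks (0.38 and 0.37). Neighbouring windows are not independent, and all counts share the mappable length of a window.

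The densest windows differed in their surroundings. The window from 152000001 to 153000000 on chromosome 4 held 119 TFIIIC-alone regions among 424 TFIIIC regions (28.1%). It had 1 and 3 H3K27me3 peaks in WT, 3 and 2 in RbL, and at most 2 peaks in any condensin II list. The second, from 21000001 to 22000000 on chromosome 9, held 99 among 398 (24.9%) and had 34 to 57 H3K27me3 peaks per library, 30 and 20 CAP-D3 peaks and 51 and 41 CAP-H2 peaks in WT and RbL. The next 3 were on chromosome 4 from 151000001 to 152000000 (93), on chromosome 8 from 119000001 to 120000000 (93) and on chromosome 4 from 139000001 to 140000000 (92). A dense group of TFIIIC-alone regions was thus found both where the other marks were nearly missing over a whole megabase and where they were plentiful.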

How the data were processed

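ChIP-seq peak lists of 12 libraries were analysed; no list of the 8 inputs was used. Per the submitters' processing notes, Bowtie2 2.3.0, MACS 1.4.0rc2 and the mm9 build were used to align reads and call peaks. Settings are not given in the sources used here. Each deposited list gives positions and the authors' score per peak, 1 list per library, with no pooling; the lowest score is 50.0 to 50.2, and 64 to 2134 autosomal TFIIIC peaks per list are tied at 3100. Deeper sequencing raises the number, width and score of called peaks, and the depth is unknown.

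Groups were taken from the sample labels. Peaks were merged and distances measured with pandas 2.3.3 and numpy 2.4.6 in Python 3.11.15, code that was checked base by base on simulated intervals. A region's score in a library is that of its highest peak. Only chromosomes 1 to 19 were used, and printed starts count from 1. Tests were two-sided exact permutation tests over libraries: sign flips for a difference within libraries, and exchange of genotype labels between them. Named regions were chosen by rule: the 12 with the highest lowest score, the narrowest, those at the width limit, the farthest from other marks, the 5 largest rank differences per direction without overlap, and the 5 densest windows; only the leading ones are named. The members, rules and lists were chosen with earlier results of these data known. Alternatives were another merging gap, score minimum, width limit, exclusion distance and near distance, width classes, equal list lengths, a replicate block and leaving out each library. Gene assignment and sequences were left out, as no mm9 genome was used.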

Additional observations from a re-analysis of the deposited data

Results flagged for a closer look

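The score gap between TFIIIC-alone regions and constant regions at condensin II pointed down in both WT libraries and up in both RbL libraries, a difference of 0.17 on the log2 scale. The difference was tested with an exact permutation of the genotype labels, which gave p = 0.333, the smallest possible with 2 libraries per genotype. In the mean over width classes both genotypes pointed up. From 3000 to 5000 bp, however, the gap was still -0.05 and -0.10 in WT and 0.08 in both RbL libraries. The sign in WT thus differed between width classes, while both RbL gaps lay above both WT gaps in each class.

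Sequences outside the autosomes, which the comparisons do not use, also held regions that met the rest of the rule. There were 1717 on chromosome X (13.7% of its merged TFIIIC regions), 352 on unplaced sequences (11.4%) and 19 on chromosome Y (21.1% of 90). No control immunoprecipitation was analysed against which to set these counts.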

How the results depend on the processing

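The number of TFIIIC-alone regions ranged from 63640 to 102688 over 8 settings that leave out 1 TFIIIC or H3K27me3 library, and moved by over 1.5 times only without WT TFIIIC replicate 1 (102688). It was 45810 with TFIIIC peaks up to 1 kb apart merged, 57410 at a TFIIIC score of at least 100, 48755 under 2 kb and 57771 with no other mark within 1 kb. The mean score gap to regions at condensin II, -0.01, turned positive with peaks up to 1 kb apart merged (0.31), under 2 kb (0.27), with no other mark within 1 kb (0.056) and within width classes (0.24), and was -0.08 to -0.02 leaving out 1 TFIIIC library; the cause was not tested. Its genotype difference stayed positive in every setting run, at 0.07 to 0.23 leaving out 1 library. It was 0.08 with no other mark within 1 kb, 0.30 with peaks merged and 0.29 under 2 kb. The genotype difference in the share near H3K27me3 was 1.50 to 6.22 points leaving out 1 library and 0.38 at equal list lengths, a setting chosen after seeing the data, as were the width classes for the genotype difference in the score gap. The difference between TFIIIC-alone and less reproducible regions near H3K27me3 was negative in every setting run, at -6.74 to -4.51 points leaving out 1 library. With a replicate block, the genotype differences were the same by construction, 0.17 (pairs 0.16 and 0.18) and 3.79 points (pairs 4.92 and 2.67), with an exact permutation p of 0.5, the smallest for 2 pairs. Deviations of same-numbered libraries correlated at 0.01 for TFIIIC and 0.12 for H3K27me3, and with 2 pairs they share only a number. The ties at 3100 and the unknown read depth limit every comparison of scores.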
